A study of Bos taurus with 8 samples.

Results

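The genes of cholesterol synthesis and sterol regulation were followed through 34 listed names, which cover the enzymes that build cholesterol, the proteins that sense it, and those that move, store or export it. A gene was taken from the probes that carry its name in the scanner files, and its brightest probe over the 8 arrays stood for it. SC4MOL is an older symbol of MSMO1 and STARD4 is not analysed here, so 32 genes had a probe. NPC1L1, an intestinal cholesterol uptake protein, was well above background on 1 array alone, control replicate 1, and was not tested. The remaining 31 members were tested among 12892 genes in all. The arrays were hybridised with RNA of bovine mammary epithelial cells, primary cultures from the gland of a lactating Holstein cow at the fifth passage. Cells labelled EEF1D knockdown had received the EEF1D-1357 shRNA (3 arrays) or the EEF1D-1893 shRNA (3 arrays), and cells labelled as without shRNA gave 2 control arrays. An shRNA is a short hairpin RNA that lowers its target mRNA by RNA interference, and EEF1D is the gene of a guanine nucleotide exchange subunit that recharges elongation factor eEF1A in translation. The labels name no non-targeting hairpin, no vector and no promoter, so a response to receiving any hairpin cannot be told apart from a response to lower EEF1D.

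Cholesterol is built from acetyl-CoA through mevalonate, isoprenoid diphosphates, squalene and lanosterol, and the last steps trim lanosterol to cholesterol in the endoplasmic reticulum (ER). The transcription factors SREBP-1 and SREBP-2 switch on these enzymes: when ER sterols are low, SCAP escorts SREBP to the Golgi for cleavage, and when sterols are ample the INSIG proteins hold SCAP and SREBP back. Oxysterols act the other way through the liver X receptors, which switch on cholesterol export. In the lactating mammary gland SREBPs also drive fatty acid synthesis for milk fat, and cholesterol is secreted in the membrane of milk fat globules.

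Signals are given as scaled log2 signals, that is log2 of the processed spot intensity minus the 75th percentile of its array. On each array 60.6% to 71.5% of probes were well above background and 0 spots were saturated, and that percentile ranged from 1265 to 2078 intensity units. Whether replicates were separate cultures is not in the labels, so the p-values reflect the spread among these arrays alone, and the number of arrays limits the precision. In bulk RNA, fewer cells of a type and less RNA per cell cannot be told apart. The controls differed from each other more than arrays of the same shRNA did. Within the shRNA groups the log2 differences between 2 arrays had an SD over genes of 0.51 to 0.73, and between the controls it was 0.84. Control replicate 1 had the dimmest 75th percentile, a median correlation over genes of 0.968 with the other arrays where the others had 0.976 to 0.980, and spike-in controls 1.69 log2 units over its percentile where the others had 0.50 to 1.01. The EEF1D-1357 arrays shared slide 1 with control replicate 2, and the EEF1D-1893 arrays shared slide 2 with control replicate 1. The main results are also given without control replicate 1. EEF1D itself had signals of 5.98, 5.87 and 5.11 with EEF1D-1357, 6.001, 5.75 and 5.78 with EEF1D-1893, and 7.13 and 6.15 in the controls. The 6 shRNA arrays lay below both controls, at a log2 fold change of -0.89 (SE 0.32) that did not pass (limma adjusted p = 0.245), and -0.40 (SE 0.33) without control replicate 1. Within slides it stood at -0.50 (SE 0.36) with EEF1D-1357 and -1.28 (SE 0.36) with EEF1D-1893, and neither passed.

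Across the 6 shRNA arrays most enzymes of cholesterol synthesis stood below the mean of the controls. SOAT1, which esterifies cholesterol, and 1 of the 2 INSIG genes stood above that mean. The smallest p-values on the lower side were those of INSIG1, at 55.1% of control, LSS at 62.0% and MVD at 59.6%, and on the higher side those of SOAT1 at 131.8%, SC5DL at 130.7% and INSIG2 at 157.4%. None of the 31 members passed: at a Benjamini-Hochberg adjusted p under 0.05 limma called 0 members and 0% of all genes, and this held for both shRNAs together, for each shRNA against control and between the shRNAs. At an unadjusted p under 0.05, 7 members were lower for both shRNAs against control, beside 9.46% of all genes, and 3 were higher, beside 7.33% of all genes. Of the genes at that p 56.3% were lower, but 40.0% with median scaling, where the members were 6 lower and 3 higher. The lower members were INSIG1, LSS, MVD, IDI1, MVK, SQLE and CYP51A1, and the higher ones SOAT1, SC5DL and INSIG2. All 6 shRNA arrays lay below both controls in 5 members (CYP51A1, INSIG1, LSS, MVD and MVK), beside 9.06% of all genes, and above both controls in 2 members (INSIG2 and SOAT1), beside 7.73%. No other tested probe of CYP51A1, LSS, MVD, MVK or SOAT1 separated the shRNA arrays from both controls. The median log2 fold change was -0.43 over the 19 measured biosynthesis enzymes, of which 13 lay below 0, and -0.16 over all 31 members, of which 20 lay below 0. Over all 12892 genes the median was -0.07, with 7380 below 0. These values rest on control replicate 1: without it the median of the enzymes was -0.06 and that of the members close to 0 (-0.005), and without control replicate 2 they were -0.85 and -0.37. Without control replicate 1, an unadjusted p under 0.05 was reached by 3 lower members (CYP51A1, INSIG1 and LSS), beside 6.10% of all genes, and by 3 higher ones (ABCG1, DHCR7 and PMVK), beside 9.89%.

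**Figure D1:**
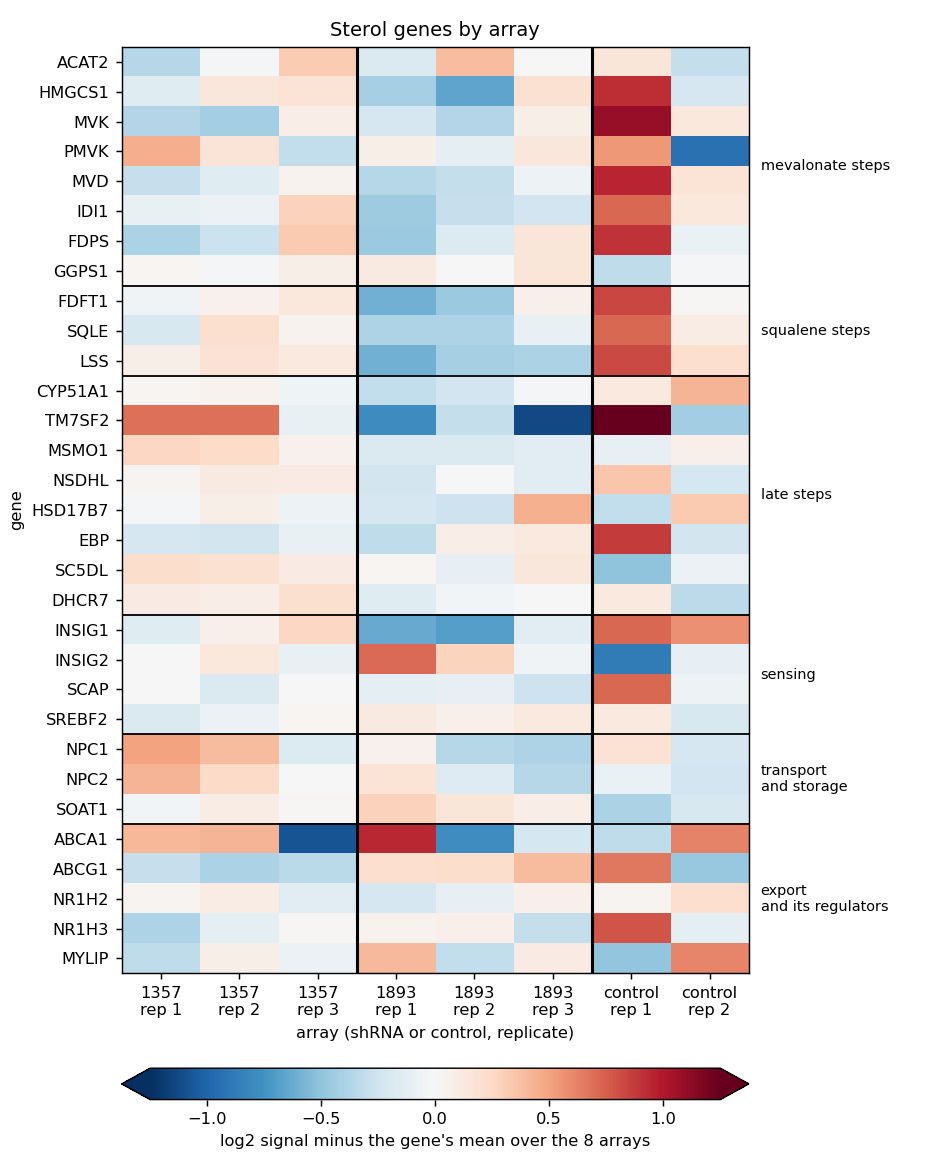
Scaled log2 signal of each of the 31 measured members (rows, grouped by role) in each of the 8 arrays (columns), as the difference from the gene's mean over the arrays, with red above and blue below that mean. Control replicate 1 is the reddest column among the mevalonate and squalene steps, and EEF1D-1893 replicates 1 and 2 are mostly blue there.

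The mevalonate steps turn acetyl-CoA into the isoprenoid farnesyl diphosphate. MVD, which decarboxylates mevalonate diphosphate, had scaled log2 signals of 1.15, 1.28 and 1.48 with EEF1D-1357, 1.07, 1.13 and 1.38 with EEF1D-1893, and 2.39 and 1.60 in the controls. Both controls lay above the 6 shRNA arrays, EEF1D-1357 replicate 3 coming nearest to control replicate 2. Its log2 fold change over both shRNAs was -0.75 (SE 0.22, limma adjusted p = 0.202), and -0.35 without control replicate 1. MVK, mevalonate kinase, had signals of 2.62, 2.56 and 3.07 with EEF1D-1357, 2.78, 2.62 and 3.06 with EEF1D-1893, and 4.07 and 3.12 in the controls. The third replicate of each shRNA lay just below control replicate 2, and control replicate 1 lay far above all other arrays. MVK stood at -0.81 (SE 0.28, adjusted p = 0.235), and -0.33 without control replicate 1. IDI1 isomerises isopentenyl diphosphate, and its signals were 1.50, 1.52 and 1.88 with EEF1D-1357, 1.15, 1.30 and 1.36 with EEF1D-1893, and 2.32 and 1.73 in the controls. The EEF1D-1893 arrays lay below all others, whereas EEF1D-1357 replicate 3 lay between the controls. FDPS, farnesyl diphosphate synthase, had signals of 3.99, 4.12 and 4.71 with EEF1D-1357, 3.92, 4.22 and 4.53 with EEF1D-1893, and 5.30 and 4.31 in the controls. The groups overlapped, since the third replicate of each shRNA lay above control replicate 2. The log2 fold changes were -0.57 for IDI1 (SE 0.20, adjusted p = 0.233) and -0.55 for FDPS (SE 0.32, adjusted p = 0.408), and -0.28 and -0.06 without control replicate 1.

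HMGCS1, which makes HMG-CoA, spanned 1.89 to 2.21 with EEF1D-1357 and 1.38 to 2.24 with EEF1D-1893, and was at 2.97 and 1.84 in the controls. Its log2 fold change was -0.48 (SE 0.34) over both shRNAs and 0.09 without control replicate 1. The remaining 3 mevalonate genes lay above 0. PMVK, phosphomevalonate kinase, spanned 1.56 to 2.33 and 1.74 to 2.01 with EEF1D-1357 and EEF1D-1893, and its controls lay on either side of all shRNA arrays, at 2.41 and 0.94. ACAT2, the cytosolic thiolase at the entry of the pathway, spanned 0.12 to 0.80 and 0.31 to 0.87 with the same shRNAs, around controls of 0.64 and 0.19. GGPS1 leads away from cholesterol, to geranylgeranyl diphosphate, and had signals of 2.01, 1.95 and 2.05 with EEF1D-1357, 2.09, 1.98 and 2.14 with EEF1D-1893, and 1.67 and 1.97 in the controls. Only EEF1D-1357 replicate 2 failed to exceed both controls, by a small margin. Its log2 fold change was 0.22 (SE 0.13, adjusted p = 0.411), and 0.07 without control replicate 1. Of the 8 mevalonate genes 5 lay below 0 over both shRNAs, with a median of -0.52.

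The squalene steps commit carbon to sterols, and all 3 of their genes lay below 0, with a median log2 fold change of -0.57. LSS, lanosterol synthase, closes the first sterol ring system. Its signals were -0.35, -0.24 and -0.30 with EEF1D-1357, -1.02, -0.84 and -0.82 with EEF1D-1893, and 0.40 and -0.22 in the controls. The 3 groups did not overlap: EEF1D-1893 was lowest, EEF1D-1357 lay above it with a narrow spread, and control replicate 2 lay just above EEF1D-1357. The means were -0.30 ± 0.05 with EEF1D-1357, -0.90 ± 0.11 with EEF1D-1893 (SD, n = 3 each) and 0.09 ± 0.44 in the controls (SD, n = 2). The log2 fold change was -0.69 (SE 0.18, adjusted p = 0.167) over both shRNAs, and -0.38 without control replicate 1. SQLE, squalene monooxygenase, a rate-limiting oxygenase of the pathway, had signals of 3.53, 3.94 and 3.78 with EEF1D-1357, 3.34, 3.35 and 3.64 with EEF1D-1893, and 4.45 and 3.83 in the controls. EEF1D-1357 replicate 2 lay above control replicate 2, and the EEF1D-1893 arrays lay below both controls. FDFT1, squalene synthase, had signals of 2.64, 2.74 and 2.82 with EEF1D-1357, 2.09, 2.22 and 2.74 with EEF1D-1893, and 3.52 and 2.70 in the controls. EEF1D-1893 replicates 1 and 2 were the lowest arrays, and replicate 3 reached the level of control replicate 2. The log2 fold changes were -0.54 for SQLE (SE 0.21, adjusted p = 0.263) and -0.57 for FDFT1 (SE 0.26, adjusted p = 0.321), and -0.23 and -0.16 without control replicate 1. The brightest LSS probe is shown because it separated the 3 groups. It lies at chr1:148837227-148837286 on the Btau_3.1 build that the file headers name, has a GC content of 35%, and its first 30 of 60 bases read 5′ to 3′ as deposited:
LSS: accaaaagtgcttaacgcataataaaaatg

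The late steps trim lanosterol to cholesterol. Of their 8 measured genes 5 lay below 0, and their median was -0.05. CYP51A1, the lanosterol 14-alpha demethylase, had signals of 2.49, 2.501 and 2.41 with EEF1D-1357, 2.15, 2.22 and 2.44 with EEF1D-1893, and 2.58 and 2.88 in the controls. On this brightest probe every shRNA array lay below both controls, and here control replicate 2 was the higher one. CYP51A1 stood at a log2 fold change of -0.36 (SE 0.14, adjusted p = 0.271), and -0.51 without control replicate 1. A second CYP51A1 probe was well above background on all 8 arrays. Its signals were 1.125, 1.276 and 1.171 with EEF1D-1357, 0.812, 0.932 and 1.275 with EEF1D-1893, and 1.028 and 1.428 in the controls. Most shRNA arrays lay above control replicate 1 there, at a log2 fold change of -0.13 (SE 0.175) in a fit over single probes. SC5DL, the sterol C5-desaturase, stood on the other side of control, with signals of 1.58, 1.56 and 1.47 with EEF1D-1357, 1.39, 1.26 and 1.50 with EEF1D-1893, and 0.86 and 1.29 in the controls. Only EEF1D-1893 replicate 2 did not exceed both controls. Its log2 fold change was 0.39 (SE 0.15, adjusted p = 0.269), and 0.17 without control replicate 1. EBP, the sterol isomerase, had signals of 1.73, 1.72 and 1.85 with EEF1D-1357, 1.64, 2.04 and 2.07 with EEF1D-1893, and 2.83 and 1.72 in the controls. Control replicate 1 lay above all other arrays and control replicate 2 among the shRNA arrays, so that the log2 fold change of -0.43 (SE 0.28, adjusted p = 0.455) became 0.12 without control replicate 1.

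TM7SF2, a sterol C14-reductase, varied most among the late genes, with signals of 0.61, 0.61 and -0.17 with EEF1D-1357, -0.86, -0.38 and -1.20 with EEF1D-1893, and 1.29 and -0.51 in the controls. The EEF1D-1357 arrays lay above the EEF1D-1893 arrays, with control replicate 1 above all other arrays and EEF1D-1893 replicates 1 and 3 below both controls. Its log2 fold change of -0.62 (SE 0.48, adjusted p = 0.525) became 0.28 without control replicate 1. MSMO1, the C4-methylsterol oxidase, had signals of 4.01, 3.98 and 3.80 with EEF1D-1357, 3.56, 3.57 and 3.61 with EEF1D-1893, and 3.64 and 3.82 in the controls. The EEF1D-1893 arrays lay below all other arrays by a small margin. NSDHL, which works with MSMO1 in removing the C4 methyl groups, had signals of 0.88, 0.96 and 0.95 with EEF1D-1357, 0.62, 0.84 and 0.72 with EEF1D-1893, and 1.20 and 0.63 in the controls. DHCR7 performs the last reduction to cholesterol, and had signals of 4.22, 4.20 and 4.32 with EEF1D-1357, 3.97, 4.08 and 4.13 with EEF1D-1893, and 4.24 and 3.79 in the controls. For both genes every EEF1D-1357 array lay above every EEF1D-1893 array. For NSDHL control replicate 1 lay above all shRNA arrays and control replicate 2 level with the lowest, and for DHCR7 control replicate 1 lay among the EEF1D-1357 arrays and control replicate 2 below all arrays. HSD17B7, the 3-ketosteroid reductase of the pathway, spanned 0.98 to 1.12 with EEF1D-1357 and 0.79 to 1.50 with EEF1D-1893, with controls of 0.75 and 1.38 that span most of these arrays. The log2 fold changes over both shRNAs were 0.02 for MSMO1, -0.08 for NSDHL, 0.14 for DHCR7 and -0.02 for HSD17B7, with adjusted p between 0.649 and 0.975.

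Among the sensing genes the 2 INSIG genes, whose proteins retain SCAP and SREBP in the ER, lay on opposite sides of control. INSIG1, which is itself an SREBP target, had signals of -0.13, 0.09 and 0.28 with EEF1D-1357, -0.60, -0.67 and -0.11 with EEF1D-1893, and 0.75 and 0.60 in the controls. The controls were close to each other for this gene and lay well above all shRNA arrays, and 2 of the EEF1D-1893 arrays lay below all the others. The means were 0.08 ± 0.21 with EEF1D-1357, -0.46 ± 0.31 with EEF1D-1893 (SD, n = 3 each) and 0.67 ± 0.10 in the controls (SD, n = 2). The log2 fold change was -0.86 (SE 0.19, adjusted p = 0.155) over both shRNAs, -0.59 (SE 0.22, adjusted p = 0.269) with EEF1D-1357 and -1.13 (SE 0.22, adjusted p = 0.217) with EEF1D-1893. It stood at -0.79 without control replicate 1 and at -0.93 without control replicate 2, and between -0.81 and -0.95 with any 1 shRNA array left out. INSIG2, an isoform that is not an SREBP target, had signals of 0.08, 0.21 and -0.02 with EEF1D-1357, 0.79, 0.35 and 0.03 with EEF1D-1893, and -0.80 and -0.03 in the controls. Here all shRNA arrays lay above both controls, but EEF1D-1357 replicate 3 and EEF1D-1893 replicate 3 by little. INSIG2 stood at 0.66 (SE 0.26, adjusted p = 0.277), and 0.27 without control replicate 1. The INSIG1 probe is shown because this gene had the smallest p-value of all members. It lies at chr4:121371794-121371853 (Btau_3.1), with a GC content of 35%, and its first 30 bases are:
INSIG1: taccagattggaacatctagtgagattcac

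SCAP, the escort of SREBP, had signals of 3.38, 3.20 and 3.38 with EEF1D-1357, 3.26, 3.28 and 3.13 with EEF1D-1893, and 4.10 and 3.31 in the controls. Control replicate 1 alone stood apart, and control replicate 2 lay among the EEF1D-1357 arrays. SCAP stood at -0.43 (SE 0.21, adjusted p = 0.338), and -0.04 without control replicate 1. SREBF2 encodes SREBP-2, the main SREBP of cholesterol synthesis, and had signals of 4.09, 4.19 and 4.30 with EEF1D-1357, 4.39, 4.33 and 4.40 with EEF1D-1893, and 4.40 and 4.07 in the controls on its brightest probe. The EEF1D-1893 arrays lay above the EEF1D-1357 arrays, and the controls spanned both. The log2 fold change of this probe was 0.05 (SE 0.14, adjusted p = 0.877). A second SREBF2 probe, well above background on all 8 arrays, gave another picture, with signals of 1.64, 1.52 and 1.60 with EEF1D-1357, 1.38, 1.50 and 1.44 with EEF1D-1893, and 2.47 and 1.94 in the controls. On this probe all shRNA arrays lay below both controls, at a log2 fold change of -0.69 (SE 0.16) in a fit over single probes. The direction for SREBF2 therefore depends on the probe. No fold is given for its remaining 2 probes, which were well above background on 4 and 2 arrays. Both probes are shown for that reason, from chr5:120041454-120041513 (A_73_P288011, the brightest, GC content 66.7%) and chr5:120042349-120042408 (A_73_P148781, GC content 38.3%) on Btau_3.1, each by its first 30 bases:
A_73_P288011: tgcccacatcagccgccgcctccctccatt
A_73_P148781: gggggcaggcttggggatgggtgaaatcgt

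**Figure D2:**
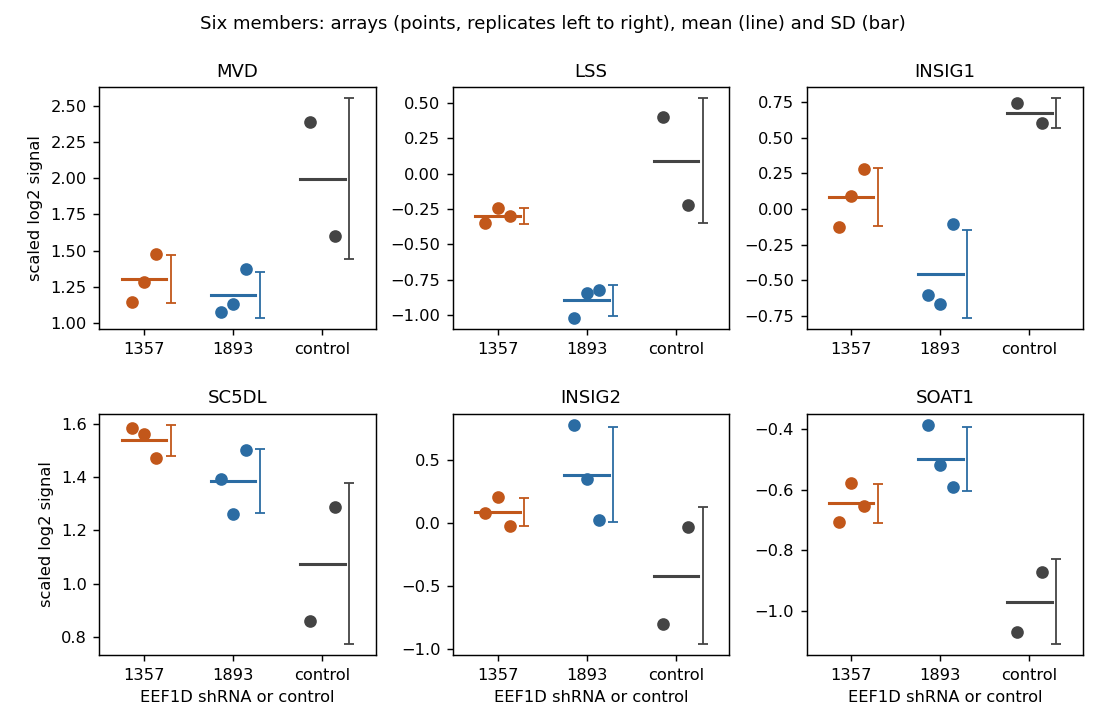
Scaled log2 signal of MVD, LSS, INSIG1, SC5DL, INSIG2 and SOAT1 in the EEF1D-1357, EEF1D-1893 and control arrays, each panel with its own axis (points are arrays, lines are group means, bars are SD over 3, 3 and 2 arrays). Both INSIG1 controls lie above all shRNA arrays at 0.75 and 0.60, whereas for MVD and LSS control replicate 1 lies far above control replicate 2.

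Transport and storage genes lay at or above the control level, with a median log2 fold change of 0.21 and 0 of 3 below 0. SOAT1 esterifies cholesterol for storage in lipid droplets, and had signals of -0.71, -0.58 and -0.65 with EEF1D-1357, -0.38, -0.52 and -0.59 with EEF1D-1893, and -1.07 and -0.87 in the controls. Both controls lay below all shRNA arrays. The means were -0.65 ± 0.07 with EEF1D-1357, -0.50 ± 0.11 with EEF1D-1893 (SD, n = 3 each) and -0.97 ± 0.14 in the controls (SD, n = 2). SOAT1 stood at a log2 fold change of 0.40 (SE 0.13, adjusted p = 0.216), and 0.30 without control replicate 1. A dimmer SOAT1 probe stood at 0.10 (SE 0.23), and control replicate 2 was the highest of the 8 arrays there. NPC2, which hands cholesterol to NPC1 inside lysosomes, had signals of 3.08, 2.89 and 2.66 with EEF1D-1357, 2.83, 2.49 and 2.30 with EEF1D-1893, and 2.58 and 2.41 in the controls. The EEF1D-1357 arrays lay above both controls, and the EEF1D-1893 arrays lay on both sides of them. NPC1, the lysosomal exporter, had signals of 3.62, 3.51 and 2.95 with EEF1D-1357, 3.17, 2.77 and 2.74 with EEF1D-1893, and 3.30 and 2.91 in the controls. EEF1D-1357 replicates 1 and 2 were the highest arrays, and the groups overlapped. The log2 fold changes were 0.21 for NPC2 (SE 0.19, adjusted p = 0.569) and 0.02 for NPC1 (SE 0.23, adjusted p = 0.968).

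The export genes and their regulators gave small differences, with all 5 below 0 over both shRNAs, a median of -0.16 and no p under 0.05. NR1H3, the liver X receptor alpha, had signals of 0.52, 0.80 and 0.92 with EEF1D-1357, 0.95, 0.97 and 0.61 with EEF1D-1893, and 1.69 and 0.80 in the controls. Control replicate 2 lay among the shRNA arrays, and the log2 fold change of -0.45 (SE 0.25, adjusted p = 0.395) was close to 0 (-0.005) without control replicate 1. NR1H2, the liver X receptor beta, had signals of 3.61, 3.67 and 3.43 with EEF1D-1357, 3.37, 3.47 and 3.64 with EEF1D-1893, and 3.61 and 3.79 in the controls, with all groups overlapping. ABCG1 exports cholesterol to high-density lipoprotein, and had signals of -4.02, -4.13 and -4.07 with EEF1D-1357, -3.52, -3.51 and -3.34 with EEF1D-1893, and -3.07 and -4.20 in the controls. The EEF1D-1893 arrays lay above the EEF1D-1357 arrays, and the controls lay outside both groups, 1 on either side. ABCA1, which exports cholesterol to apolipoprotein A-I, had signals of -4.57, -4.56 and -6.07 with EEF1D-1357, -4.05, -5.76 and -5.21 with EEF1D-1893, and -5.31 and -4.36 in the controls, and was well above background on 6 of the 8 arrays. Its arrays overlapped in full. The log2 fold changes were -0.16 for NR1H2 (SE 0.14), -0.13 for ABCG1 (SE 0.27) and -0.20 for ABCA1 (SE 0.58), with adjusted p between 0.557 and 0.882. MYLIP, a ubiquitin ligase that is switched on by liver X receptors, spanned -3.22 to -2.83 with EEF1D-1357 and -3.21 to -2.49 with EEF1D-1893, and its controls lay at -3.40 and -2.30, outside both.

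This pattern differed between the 2 controls. Control replicate 1 was the highest of the 8 arrays in 17 of 31 members, beside 39.3% of all genes, and in 12 of the 19 enzymes. It was the lowest in 6 members, beside 20.2% of all genes. It lay above control replicate 2 in 21 members, 14 of them enzymes, beside 63.2% of all genes, and the median log2 difference between the controls was 0.62 over the enzymes, 0.45 over all members and 0.23 over all genes. By role the difference was largest in the mevalonate steps (0.87) and the squalene steps (0.62), and smaller in the late steps (0.13). As medians of the enzymes' deviations from the mean of the 8 arrays, the EEF1D-1357 arrays lay at -0.02, 0.07 and 0.08, the EEF1D-1893 arrays at -0.31, -0.24 and 0.01, and the controls at 0.72 and -0.02. Control replicate 2 lay level with the EEF1D-1357 arrays, above EEF1D-1893 replicates 1 and 2. Among the EEF1D-1893 arrays, replicate 1 was the lowest of the 3 in 12 enzymes, replicate 2 in 6 and replicate 3 in 1. The part of the higher spike-in signal of control replicate 1 in these differences was not tested.

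**Figure D3:**
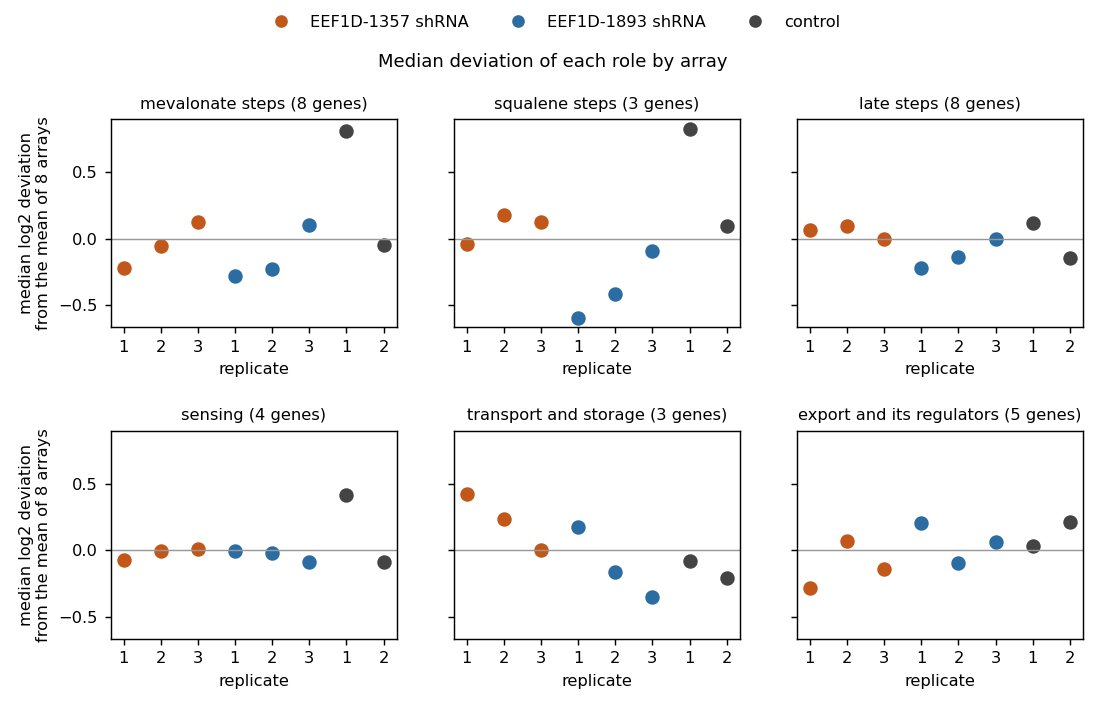
Median log2 deviation of the members of each role from their mean over the 8 arrays (vertical axis), for each array of the EEF1D-1357, EEF1D-1893 and control groups (horizontal axis, replicate number). In the mevalonate and squalene steps control replicate 1 lies above all other arrays, and in the squalene steps the 3 EEF1D-1893 arrays are the lowest.

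Within slides the pattern split. On slide 2 the EEF1D-1893 arrays against control replicate 1 had an enzyme median of -0.91, with 16 of 19 enzymes below 0. On slide 1 the EEF1D-1357 arrays against control replicate 2 had an enzyme median of 0.04, with 8 of 19 below 0. Over all genes these medians were -0.20 and 0.03. With slide as a block in limma, 10 members passed with lower values for EEF1D-1893 against control, beside 8.05% of all genes: MVK, MVD, IDI1, FDFT1, SQLE, LSS, TM7SF2, EBP, INSIG1 and SCAP. Their adjusted p lay between 0.0240 (LSS) and 0.0434 (FDFT1), and their log2 fold changes between -2.10 for TM7SF2 and -0.87 for SCAP. A further 2 members passed with higher values, beside 6.41% of all genes: INSIG2 at 1.19 (adjusted p = 0.0498) and SOAT1 at 0.57 (adjusted p = 0.0465). For EEF1D-1357 against control 0 members passed in that fit, beside 0.186% lower and 0.0388% higher among all genes. There MVK stood at -0.37, MVD at -0.30, INSIG1 at -0.52 and CYP51A1 at -0.42, whereas PMVK stood at 1.03 and DHCR7 at 0.45. The limma adjusted p in that fit was 0.321 for CYP51A1, 0.25 for PMVK and 0.245 for DHCR7. For both shRNAs 2 members passed with lower values, LSS (adjusted p = 0.0345) and MVD (adjusted p = 0.0436), beside 2.86% of all genes, and 0 with higher values, beside 2.59%. This fit takes its 4 residual degrees of freedom from the shRNA arrays alone, so it leaves the disagreement of the 2 controls out of its spread, and the control of slide 2 is replicate 1. Without control replicate 2 over both shRNAs, 11 members passed with lower values, beside 14.6% of all genes, and 3 with higher values, beside 8.45%. Without control replicate 1, 27 genes passed in all, of which 0 were members.

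**Figure D4:**
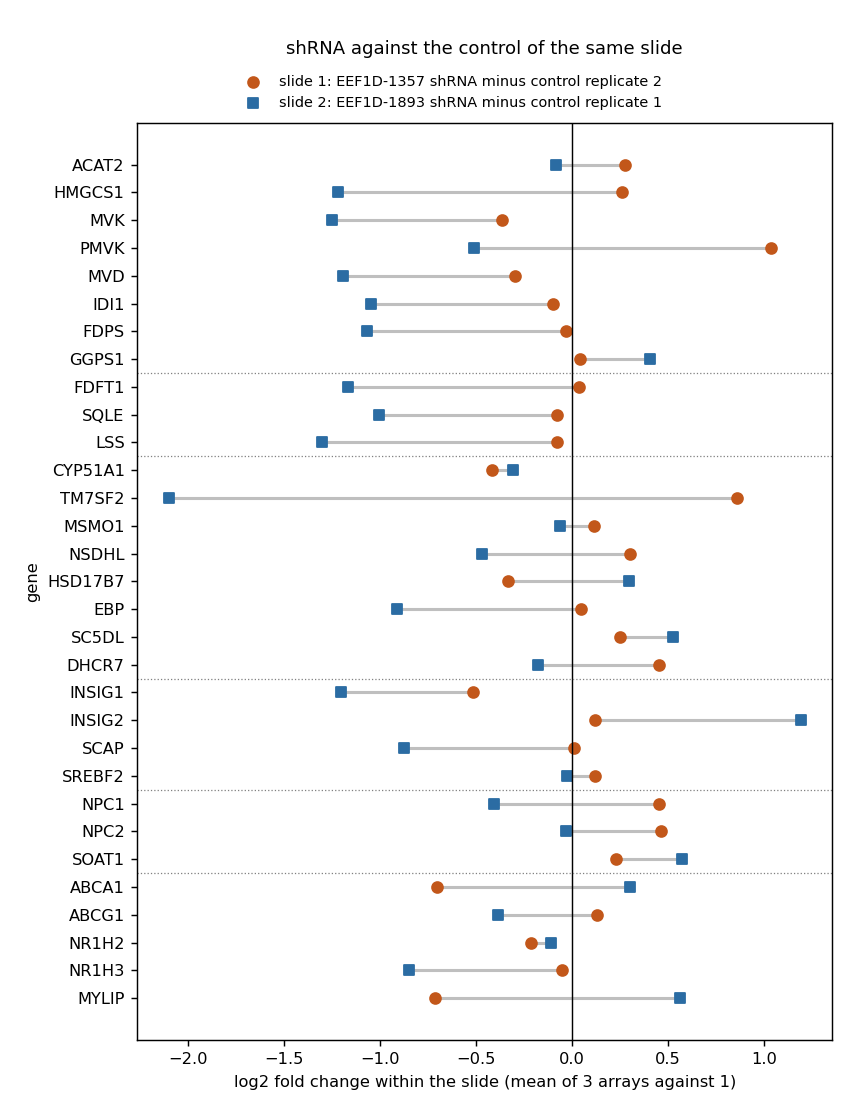
Log2 fold change of each member within its slide: EEF1D-1357 arrays minus control replicate 2 on slide 1 (circles) and EEF1D-1893 arrays minus control replicate 1 on slide 2 (squares), each a mean of 3 arrays against 1. INSIG1, MVD, MVK and CYP51A1 lie at -0.30 or lower on both slides, whereas IDI1, FDPS, SQLE and LSS lie between -0.10 and -0.03 on slide 1 and between -1.30 and -1.005 on slide 2.

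Each shRNA was next compared with both controls over all arrays, and then with the other shRNA. With EEF1D-1357 3 members were lower at an unadjusted p under 0.05 (MVK, MVD and INSIG1), beside 9.85% of all genes, and 1 was higher (SC5DL), beside 6.23%. With EEF1D-1893 8 members were lower (MVK, MVD, IDI1, FDFT1, SQLE, LSS, CYP51A1 and INSIG1), beside 7.17% of all genes, and 2 were higher (INSIG2 and SOAT1), beside 6.79%. The EEF1D-1893 arrays lay below both controls in 9 members, beside 14.4% of all genes, and above both in 3, beside 13.7%. The EEF1D-1357 arrays lay below both controls in 5 members, beside 18.3%, and above both in 4, beside 12.2%. The 2 comparisons share the control arrays. The direct difference, EEF1D-1357 minus EEF1D-1893, takes its size from the shRNA arrays alone, but its spread also from the controls. At an unadjusted p under 0.05 it was above 0 in 4 members, beside 2.56% of all genes, and below 0 in 0 members, beside 3.88%. The 4 were LSS at 0.60 (SE 0.18), INSIG1 at 0.54 (SE 0.19), MSMO1 at 0.35 (SE 0.12) and TM7SF2 at 1.16 (SE 0.48), each at a limma adjusted p of 0.744 over all genes. With either control left out these differences kept their size. ABCG1 went the other way, at -0.61 (SE 0.27, limma adjusted p = 0.744) over all 8 arrays. All EEF1D-1357 arrays lay above all EEF1D-1893 arrays in 6 members (IDI1, LSS, TM7SF2, MSMO1, NSDHL and DHCR7), beside 6.76% of all genes, and below them in 2 (SREBF2 on its brightest probe and ABCG1), beside 15.0%. The median difference was 0.19 over the enzymes and 0.10 over all members, against -0.05 over all genes. Slide and shRNA cannot be told apart in this difference except through the single control on each slide. With slide as a block 0 members passed for it, beside 0.0310% lower and 0.0155% higher among all genes, and LSS had a difference of 1.22 (adjusted p = 0.0866).

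Most members were measured by more than 1 probe. Of 72 member probes 69 were tested, and 24 members had more than 1. Dim probes included, all probes of a member had the same sign over both shRNAs in 17 of the 24, and in 13 of the 16 enzymes with several probes. A second probe of LSS stood at -0.84 (SE 0.38) beside -0.69 for the brightest, and the probes of MVD, MVK, IDI1, FDPS, FDFT1, EBP and SC5DL likewise kept 1 sign. That second LSS probe read -3.28, -3.28 and -3.44 with EEF1D-1357, and -1.90 and -3.50 in the controls. Control replicate 2 thus lay below the EEF1D-1357 arrays on it, and control replicate 1 far above. On the other probes of MVD and MVK, too, some shRNA arrays lay above control replicate 2. SREBF2, SCAP, NR1H2, NR1H3, ACAT2, HMGCS1 and HSD17B7 had probes on both sides of 0. INSIG1, INSIG2, SQLE, TM7SF2, DHCR7, ABCG1 and ABCA1 rest on a single tested probe each. For INSIG1 another probe was well above background on 1 array alone.

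**Figure D5:**
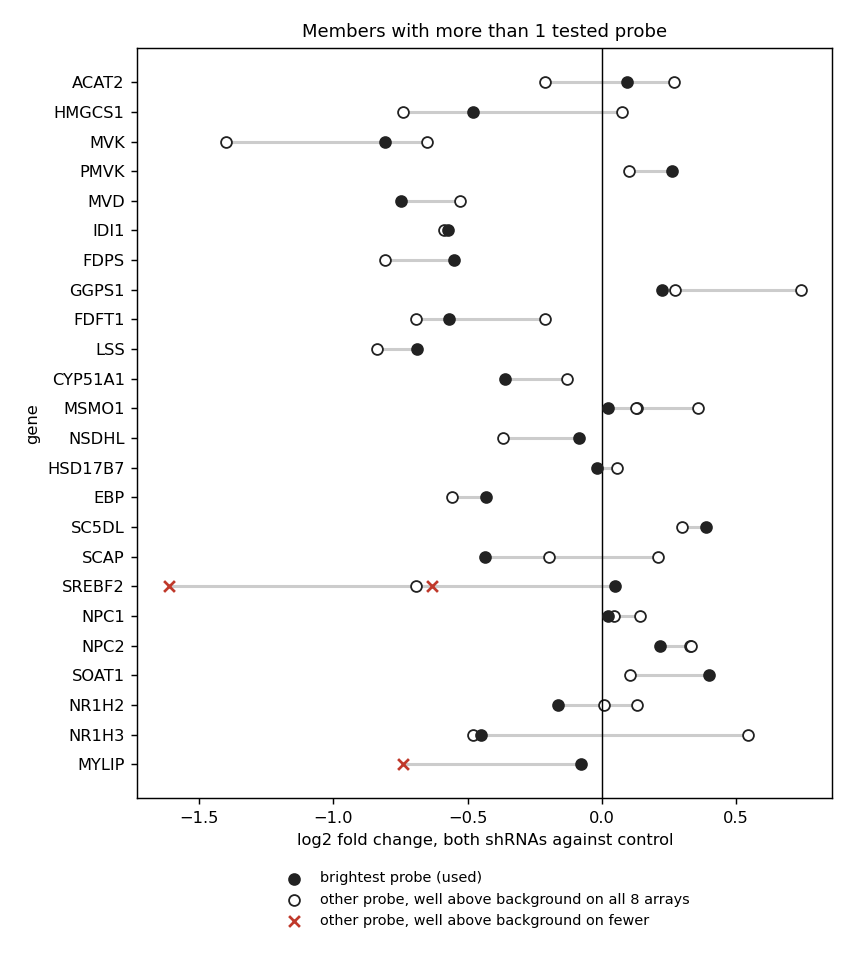
Log2 fold change over both shRNAs, relative to control, for every tested probe of the 24 members with more than 1, in a fit over single probes (filled circles are the brightest probe, open circles other probes well above background on all 8 arrays, and crosses 3 probes that were so on fewer and whose values are no measured folds). The probes of LSS, MVD, MVK and IDI1 lie on the left of 0, and the SREBF2 circles lie at 0.05 and -0.69.

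Other genes of the pathway were taken from a list of 51 drawn up by function. Of the 46 measured, 25 lay below 0 over both shRNAs, with a median of -0.03 and 0 calls in limma. At an unadjusted p under 0.05, 6 were lower, beside 9.46% of all genes, and 3 higher, beside 7.33%, and the 4 with the smallest p follow. SOAT2, the second cholesterol acyltransferase, had signals of -3.60, -3.68 and -4.42 with EEF1D-1357, -2.80, -2.73 and -3.02 with EEF1D-1893, and -4.57 and -4.43 in the controls. Both controls lay below all shRNA arrays, EEF1D-1357 replicate 3 being the nearest, and the log2 fold change was 1.13 (SE 0.23, adjusted p = 0.145). NCEH1, which hydrolyses cholesterol esters, had signals of 0.32, 0.18 and -0.07 with EEF1D-1357, 0.94, 0.41 and -0.34 with EEF1D-1893, and -1.17 and -0.98 in the controls. Here too all shRNA arrays lay above both controls, at 1.32 (SE 0.31, adjusted p = 0.155). STARD3NL, a late endosomal tether to the ER, stood at 0.46 (SE 0.13, adjusted p = 0.188) and SREBF1, which encodes SREBP-1, at -0.48 (SE 0.15, adjusted p = 0.218).

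All 9 SREBP targets of fatty acid synthesis were measured, and 8 lay below 0 over both shRNAs, with a median of -0.43, 4 at an unadjusted p under 0.05 and 0 calls. FASN, fatty acid synthase, had signals of 4.98, 5.15 and 5.29 with EEF1D-1357, 5.02, 4.76 and 4.89 with EEF1D-1893, and 5.94 and 5.68 in the controls. The controls were close to each other, and all shRNA arrays lay below them. FASN stood at -0.80 (SE 0.15, limma adjusted p = 0.145, or 0.0357 with slide as a block), ACACA, the acetyl-CoA carboxylase, at -0.85 (SE 0.18, adjusted p = 0.155) and ACSS2, the acetyl-CoA synthetase, at -0.43 (SE 0.14, adjusted p = 0.223). LPIN1, a phosphatidate phosphatase, also had a p under 0.05 but was well above background on 2 arrays alone, so no fold is given. At this p 9.46% of all genes were lower.

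Of the epithelial markers, 7 of 8 luminal and 7 of 8 basal ones were well above background on all arrays, in cells labelled as mammary epithelium. The linear signals of all 8 luminal markers, 7 of them tested, were summed by brightest probe in units of each array's 75th percentile. This sum ran from 483 to 512 with EEF1D-1357 and from 485 to 553 with EEF1D-1893, and was 930 and 517 in the controls. Control replicate 1 was the highest array for this sum, as for the median of the enzymes, but not for every luminal marker. It was the highest of the 8 arrays in 5 of the 7 tested ones, beside 39.3% of all genes. For CDH1 it was the lowest array, at a scaled log2 signal of 3.60. EPCAM stood at 4.50 there, within a range of 4.38 to 5.25 over the 8 arrays. The 8 basal markers summed to between 192 and 220 with EEF1D-1357 and between 152 and 324 with EEF1D-1893, against 296 and 310 in the controls. All 8 basal markers lay below 0 over both shRNAs, 2 of them (MYLK and OXTR) at an unadjusted p under 0.05. Of the 7 tested luminal markers 6 lay below 0, 2 of them (KRT18 and GATA3) at that p. All 7 tested fibroblast markers lay below 0 as well, 1 of them (FAP) at that p. Among all 12892 genes 7380 lay below 0, and 9.46% were lower at that p. MYLK, a myosin kinase of contractile cells, had scaled log2 signals of -4.09, -2.88 and -4.59 with EEF1D-1357, -4.30, -4.82 and -1.54 with EEF1D-1893, and -0.99 and 0.57 in the controls. All its shRNA arrays lay below both controls, at a log2 fold change of -3.50 (SE 0.93, limma adjusted p = 0.173), a size that a sum of linear signals hides. OXTR was well above background on 2 arrays alone, so no fold is given. KRT14, a basal keratin, had log2 signals from 0.21 to 6.42 with EEF1D-1893. Markers of other cell types were summed in the same way, with every listed marker included whether tested or not. Fibroblast markers (7 of 8 tested) summed to between 1.34 and 3.91 over the shRNA arrays, against 2.28 and 2.84 in the controls, and leukocyte markers (5 of 7 tested) to between 4.80 and 9.95, against 9.08 and 6.28. Of the leukocyte markers, PTPRC lay between 0.81 and 2.39 and CD3D between 0.68 and 1.48 in scaled log2 signal over the 8 arrays. CD3D, a T cell receptor subunit, had every shRNA array below both controls, at -0.63 (SE 0.15, limma adjusted p = 0.155). The adipocyte (3 of 5 tested) and endothelial (2 of 5 tested) sums were under 1 on all arrays, and PECAM1, KDR, TEK, PDGFRB and CD3E were not well above background on any array. The part of these cell types in the sterol results was not tested.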

How the data were processed

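Per the file headers, the deposited scanner files hold the intensity of each Cy3 spot, read out with Feature Extraction 10.7.3.1 of Agilent (9.1 in the submitters' processing notes), background-subtracted by the authors and not normalized between arrays, with 0 or 1 flags for other spot properties. The deposited table of log2 values, quantile normalized (median 7.55 in each array), served as an alternative. Outlier probes (238 of 43653) were left out, the 75th percentile of each array was subtracted from its log2 intensity, named probes flagged well above background by 2 or more arrays entered (25859), and the brightest probe stood for each of 12892 genes. Probes were named through RefSeq (ARS-UCD2.0), and members by the symbol in the files. Limma 3.58.1 in R 4.3.3 fitted 1 mean per group to 8 arrays (5 residual and 2.11 prior degrees of freedom), two-sided, with Benjamini-Hochberg adjustment over all genes. The workflow was tested on simulated data. Alternatives were quantile, median and normexp (offset 50) processing, 2 other filters on dim probes, the mean of probes, the deposited table, slide or replicate number as a block, and each array left out.

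The members, the roles and the other lists were chosen with earlier results of these data known. Values in every array are given for up to 4 members per role by smallest p for both shRNAs against control and for members whose groups do not overlap. Up to 4 genes of each other list are named by the same p.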

Additional observations from a re-analysis of the deposited data

How the results depend on the processing

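The enzymes' median over both shRNAs lay between -0.35 and -0.46 under the other scalings and in the deposited table, and the scaling moved the median of all genes by over 0.1 in 1 comparison: for EEF1D-1357 against control it was -0.09, and 0.03 with median scaling. The cause of the changes given here was not tested. Calls of 0 became 1 for EEF1D-1357 against EEF1D-1893 with normexp, and 3 for EEF1D-1357 against control with only probes well above background on all 8 arrays. With slide as a block 703 genes were called for both shRNAs, 29 for EEF1D-1357, 1864 for EEF1D-1893 and 6 between the shRNAs. That block gave medians of 0.04 (members) and 0.04 (enzymes) for EEF1D-1357, -0.407 and -0.913 for EEF1D-1893, and 0.684 and 0.895 between the shRNAs. Leaving out each array in turn gave 0 to 2968 calls for both shRNAs, 0 to 2979 for EEF1D-1357 and 0 to 1864 for EEF1D-1893, where leaving out control replicate 2 gave the highest counts and leaving out control replicate 1 gave 27, 29 and 26. The 1 control left is then taken to have the spread of the shRNA arrays. The medians ran from -0.369 to -0.005 (members) and -0.853 to -0.056 (enzymes) for both shRNAs, from -0.267 to 0.04 and -0.684 to 0.04 for EEF1D-1357, and from -0.407 to -0.086 and -0.913 to -0.236 for EEF1D-1893. Same-numbered arrays of the 2 shRNAs had correlations of their deviations of 0.104, -0.103 and 0.077. Between same-numbered shRNA and control arrays these were 0.097, 0.083, 0.138 and 0.083. With so few arrays, such values cannot show whether a number marks a shared culture or batch. The replicate block called 0 genes in each of the 4 comparisons and gave a members' median of -0.158 for both shRNAs. It turned TM7SF2 to 0.186 for EEF1D-1357, and ABCA1 to 0.101, 0.071 and 0.13 for both shRNAs, EEF1D-1357 and EEF1D-1893. For the 22 members taken by smallest p, up to 4 per role, other signs turned as follows. ABCA1 was at 0.065 (both shRNAs) and 0.145 (EEF1D-1357) with quantile normalization, 0.065 and 0.143 with the deposited table, and 0.022, 0.036 and 0.009 (EEF1D-1893) with normexp. Normexp put NPC1 at -0.015 for both shRNAs and TM7SF2 at 0 (rounded) for EEF1D-1357. Median scaling put TM7SF2 at 0.075 and SREBF2 at 0.074 for EEF1D-1357. With the mean of probes, which counts 2 SREBF2 probes that were well above background on 4 and 2 arrays alone, SREBF2 was at -0.722 for both shRNAs and -0.82 for EEF1D-1893, and NR1H2 at 0.035 for EEF1D-1357. Within slide 1 (EEF1D-1357) FDFT1 was at 0.034, EBP at 0.047, TM7SF2 at 0.857, SCAP at 0.007, SREBF2 at 0.121 and ABCG1 at 0.131. Within slide 2 (EEF1D-1893) SREBF2 was at -0.025, NPC2 at -0.034, ABCG1 at -0.389 and ABCA1 at 0.302. With each array left out in turn, values for both shRNAs ran from -0.673 to 0.272 for ABCA1, -0.696 to 0.439 for ABCG1, -0.986 to 0.119 for EBP, -0.172 to 0.216 for NPC1, -0.114 to 0.21 for SREBF2 and -1.52 to 0.277 for TM7SF2. For EEF1D-1357 they ran from -0.702 to 0.272 for ABCA1, -1.003 to 0.131 for ABCG1, -1.058 to 0.047 for EBP, -0.786 to 0.034 for FDFT1, -0.774 to 0.007 for SCAP, -0.204 to 0.121 for SREBF2 and -0.939 to 0.857 for TM7SF2. For EEF1D-1893 they ran from -0.65 to 0.302 for ABCA1, -0.389 to 0.746 for ABCG1, -0.913 to 0.192 for EBP, -0.098 to 0.167 for NPC2, -0.848 to 0.044 for NR1H3 and -0.025 to 0.30 for SREBF2. Members outside these 22 are not listed in full, and signs turned there too. Within slides HMGCS1 was at 0.261 for EEF1D-1357 and PMVK at -0.511 for EEF1D-1893. With each array left out in turn, PMVK ran from -0.473 to 0.996 for both shRNAs. The counts that follow cover the 22 members alone. Of the values of single members, 549 kept their sign and side of the threshold under these settings and 466 did so with an array left out, while 14 and 34 came to pass the threshold.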
